A study of Homo sapiens with 14 samples.

Results

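The 5p and 3p arms of 2 human microRNA hairpins, miR-31 and miR-582, were followed through 2 assays that enrich RNA with internal m7G, a guanine methylated at its N7 position. The 4 mature arms, hsa-miR-31-5p, hsa-miR-31-3p, hsa-miR-582-5p and hsa-miR-582-3p, are 4 of the 2588 mature miRNAs in each count table. They were chosen by measured values of both assays, under a description of the 3p arms as strongly depleted in the enrichments. That description fitted miR-582-3p in both assays and miR-31-3p in BoRed-seq only. The enrichments below are therefore a description. Where the fit across all miRNAs called an arm depleted, the call is drawn from the same values that chose the arm, and it supports nothing.

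A microRNA hairpin is cut by DROSHA and DICER into a short duplex of a 5p and a 3p strand. An Argonaute protein keeps mostly one strand of the duplex, the guide, and the seed at the start of the guide pairs with target mRNAs. METTL1 is a methyltransferase that writes m7G in tRNA and has been reported to act on some miRNAs. miR-31 has been linked to metastasis and, in lung cancer, to repression of tumour suppressors such as LATS2. miR-582-3p has been linked to Wnt signalling through repression of Wnt inhibitors such as AXIN2, DKK3 and SFRP1.

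All 14 libraries were small RNA libraries from A549, an established human lung adenocarcinoma cell line, with no gene knockdown or drug named in the labels. BoRed-seq had 2 Red libraries, from RNA reduced with NaBH4 so that m7G is lost and leaves a site without a base, and 2 Ctrl libraries, from non-reduced RNA that met acid-quenched NaBH4. Per the methods of the study, the RNA of both assays was decapped beforehand, and Red and Ctrl RNA alike went through the biotin probe and the streptavidin beads. m7G-RIP-seq had 5 IP libraries, from RNA pulled down with an anti-m7G antibody, and 5 Input libraries from the RNA before the pulldown. The question asked of both assays is which miRNAs carry m7G inside the chain. Library totals ran from 4678102 to 5874405 counts in Ctrl, 242085 to 277498 in Red, 7097379 to 14874685 in Input and 2854811 to 6452759 in IP, so that the Red libraries carried the coarsest counts. As a check of the cell type, the levels of 5 epithelial miRNAs (miR-200a-3p, miR-200b-3p, miR-200c-3p, miR-141-3p and miR-429) were summed. The sum was 193 to 228 CPM (a count rescaled to a common library total) in Ctrl and 388 to 760 in Red. It was 342 to 1000 in Input and 170 to 216 in IP. The liver marker miR-122-5p was at 0 in all libraries. Summed over 4 blood cell miRNAs, the level was at most 3.41 CPM outside Red and 20.7 to 72.1 in Red, and over 3 muscle miRNAs it was at most 22.2 outside Red and 41.3 to 43.2 in Red. Summed over 2 endothelial miRNAs it was 279 to 314 in Ctrl and 86.7 to 209 in Red, and 319 to 521 in Input and 292 to 1104 in IP. Over 2 neuronal miRNAs it was 609 to 697 in Ctrl, 706 to 1045 in Red, 301 to 493 in Input and 117 to 145 in IP. In Ctrl the endothelial and neuronal sums were both above the epithelial sum. The cell type is thus taken from the labels and not from these sums. The part of these markers in the results was not tested. The labels do not say whether replicates came from separate cultures, so the spread between them may be technical.

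The mature arms are shown because m7G is a change of guanine and because the seed defines each arm's targets. The sequences were taken from RefSeq (GRCh38.p14), in which 3 of the 4 arms were matched and hsa-miR-31-3p was not. Each is written 5′ to 3′ with its seed, bases 2 to 8, in capitals.
hsa-miR-31-5p: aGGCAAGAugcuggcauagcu
hsa-miR-582-5p: uUACAGUUguucaaccaguuacu
hsa-miR-582-3p: uAACUGGUugaacaacugaacc
The 3 seeds differ, and no other mature miRNA of the sequence table shared any of them (0 relatives for each arm). miR-31-5p, at chr9:21512158-21512178 on the minus strand, is 21 bases long with 7 guanines. miR-582-5p, at chr5:59703666-59703688 on the minus strand, is 23 bases long with 3 guanines, and miR-582-3p, at chr5:59703630-59703651 on the minus strand, is 22 bases long with 4 guanines.

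The hairpins are shown to place the arms, which are in capitals here (miR-31-5p alone in the first, both arms in the second).
MIR31: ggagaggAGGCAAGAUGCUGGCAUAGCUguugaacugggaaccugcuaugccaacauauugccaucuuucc
MIR582: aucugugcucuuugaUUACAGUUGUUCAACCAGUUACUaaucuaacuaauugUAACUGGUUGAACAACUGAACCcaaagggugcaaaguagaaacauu
MIR31 spans chr9:21512115-21512185 on the minus strand, 71 bases with 20 guanines, and miR-31-5p fills bases 8 to 28. In the GENCODE annotation it lies within MIR31HG, a long non-coding RNA gene on the same strand, and overlaps 0 of the host's exons, which makes it intronic. MIR582 spans chr5:59703606-59703703 on the minus strand, 98 bases with 17 guanines, with the 5p arm at bases 16 to 38 and the 3p arm at bases 53 to 74. It lies within PDE4D, the gene of a phosphodiesterase that breaks down cAMP, on the same strand and again over 0 exons.

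The arms of miR-582 are nearly each other's complement. Bases 4 to 21 of the 5p arm pair with bases 1 to 18 of the 3p arm in an unbroken Watson-Crick run of 18 bases, in capitals here.
hsa-miR-582-5p: uuaCAGUUGUUCAACCAGUUAcu
hsa-miR-582-3p: UAACUGGUUGAACAACUGaacc
The run covers the whole seed of the 3p arm and bases 4 to 8 of the seed of the 5p arm.

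In the control libraries the hairpins used opposite arms. Of the counts of both miR-31 arms, the 3p arm held 1.62%, 2.04%, 1.84%, 3.59% and 3.42% in Input replicates 1 to 5, so that the 5p arm was the main product in each. Of the miR-582 counts, the 3p arm held 95.4%, 96.4%, 97.0%, 87.2% and 88.4% in the same libraries, so that the 3p arm was the main product in each. By normalised count (raw count divided by the library's DESeq2 size factor), the arms ordered in Input as miR-31-5p at 8590 ± 1767 (SD, n = 5), miR-582-3p at 1216 ± 401, miR-31-3p at 234 ± 134 and miR-582-5p at 78.6 ± 29.2. No neighbours in that order had ranges that met. The gap was smallest between the minor arms, as the lowest miR-31-3p library, Input 1 with 121, lay just above the highest miR-582-5p library, Input 4 with 114. The arms are 21 to 23 bases long where a sequence was at hand, but a count also depends on how well a given end is ligated, so an order of levels between arms is one of counts and not of molecules.

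Input replicates 4 and 5 stood apart from replicates 1 to 3 in the use of both hairpins. The minor arm took the larger share in replicates 4 and 5 in each hairpin, at 3.59% and 3.42% for miR-31-3p against at most 2.04% in the others. For miR-582 the 3p share was at most 88.4% in replicates 4 and 5 and at least 95.4% in the others. How many other hairpins split in this way was not counted. The split was not confined to these hairpins. Over all miRNAs past the filter, chi-square per degree of freedom, a measure of difference beyond sampling noise, was 585 to 882 for Input pairs across the sets. It was 31.4 to 183 for pairs within replicates 1 to 3 and 88.6 for replicates 4 and 5. The labels name no batch, and the cause of this split was not tested.

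**Figure D1:**
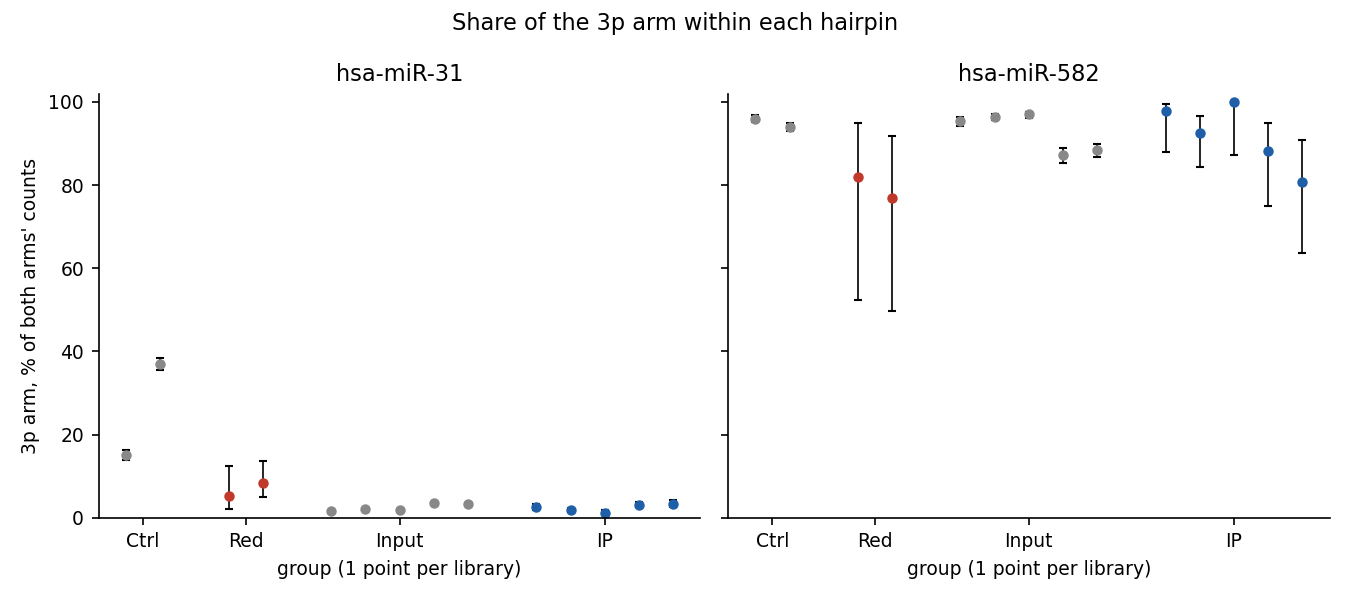
Share of the 3p arm (% of the counts of both arms of a hairpin, vertical axis) in each library, 1 point per library with its 95% Wilson interval, for miR-31 (left) and miR-582 (right). The miR-31 Ctrl libraries, at 15.0% and 36.9%, lie above the other 12 libraries, and the miR-582 Red libraries have intervals from 49.7% to 94.9%.

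In BoRed-seq the log2 enrichment was more negative for the 3p arm than for the 5p arm in each hairpin. For miR-582 the 5p value rests on Red counts of 2 and 3. For miR-31 the 3p value is set against Ctrl libraries that lay far apart and above Input. Each of the 4 arms passed the filter of 10 counts in 2 libraries, which miR-582-5p did through its Ctrl counts alone. miR-31-3p, with Red counts of 4 and 13, and miR-582-3p, with 9 and 10, also needed a Ctrl library to pass. Each arm was lower in both Red libraries than in both Ctrl libraries by normalised count. This pattern was shared by 43.2% of the 400 miRNAs that received an adjusted p. All 4 were called depleted by the DESeq2 Wald test at an adjusted p under 0.05 over those miRNAs, as were 27.2% of all. Since the arms were chosen on this contrast, nothing is read from these counts.

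miR-582-3p had normalised counts of 565 and 736 in Ctrl 1 and 2 and of 33.3 and 24.5 in Red 1 and 2. The lowest Ctrl library was 16.9-fold above the highest Red library. Its log2 enrichment was −4.52 ± 0.47 (SE), or 23.0-fold lower in Red, from raw counts of 2040 and 1980 in Ctrl and of 9 and 10 in Red.

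miR-582-5p had normalised counts of 23.8 and 46.5 in Ctrl and of 7.41 and 7.34 in Red, with a log2 enrichment of −2.25 ± 0.99 (SE). The Red values stand for raw counts of 2 and 3, against 86 and 125 in Ctrl, so they lie at the limit of what a library of this depth can show. The pooled ratio of Red to Ctrl was 0.220, with a counting interval of 0.0707 to 0.522 at the 95% level that covers counting error only. This call held in no fit with a library left out: it was lost without Ctrl 1, Red 1 or Red 2, and without Ctrl 2 DESeq2 gave no adjusted p (log2 −1.73). It was also lost with the replicate number as a block (log2 −2.21) and with library totals as size factors (log2 −1.11).

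miR-31-5p had normalised counts of 749 and 931 in Ctrl and of 274 and 350 in Red, the smallest loss of the 4 arms. The groups did not overlap, and the lowest Ctrl library was 2.14-fold above the highest Red library. The log2 enrichment was −1.42 ± 0.32 (SE). In CPM, where the library total is the only scale, Ctrl had 461 and 535 and Red had 306 and 515, so that the groups overlapped. With library totals as size factors the log2 enrichment was −0.28 and the call was lost.

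miR-31-3p had normalised counts of 132 and 545 in Ctrl and of 14.8 and 31.8 in Red. The Ctrl libraries lay far apart, with raw counts of 478 and 1465, while Red held 4 and 13 counts. The log2 enrichment was −3.81 ± 0.69 (SE), and its size depended on which libraries were kept: −4.60 without Ctrl 1, −2.51 without Ctrl 2, −3.25 without Red 1 and −4.59 without Red 2.

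The scale moved all miRNAs together. The median log2 enrichment over the 453 miRNAs past the BoRed-seq filter was −0.32 with the size factors used, −0.51 with TMM factors and 0.76 with library totals. A change of scale adds nearly the same amount to every miRNA, so distances from that median could hardly move, and they support nothing. Relative to the median, miR-582-3p was at −4.20, −4.19 and −4.16, and miR-31-5p was at −1.10, −1.09 and −1.04, in the same order of scales. miR-31-3p was at −3.49, −3.48 and −3.38, and miR-582-5p was at −1.93, −1.92 and −1.87. With library totals, 46 miRNAs were called depleted and 175 enriched of 391 tested, against 109 and 129 of 400 with the size factors used.

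**Figure D2:**
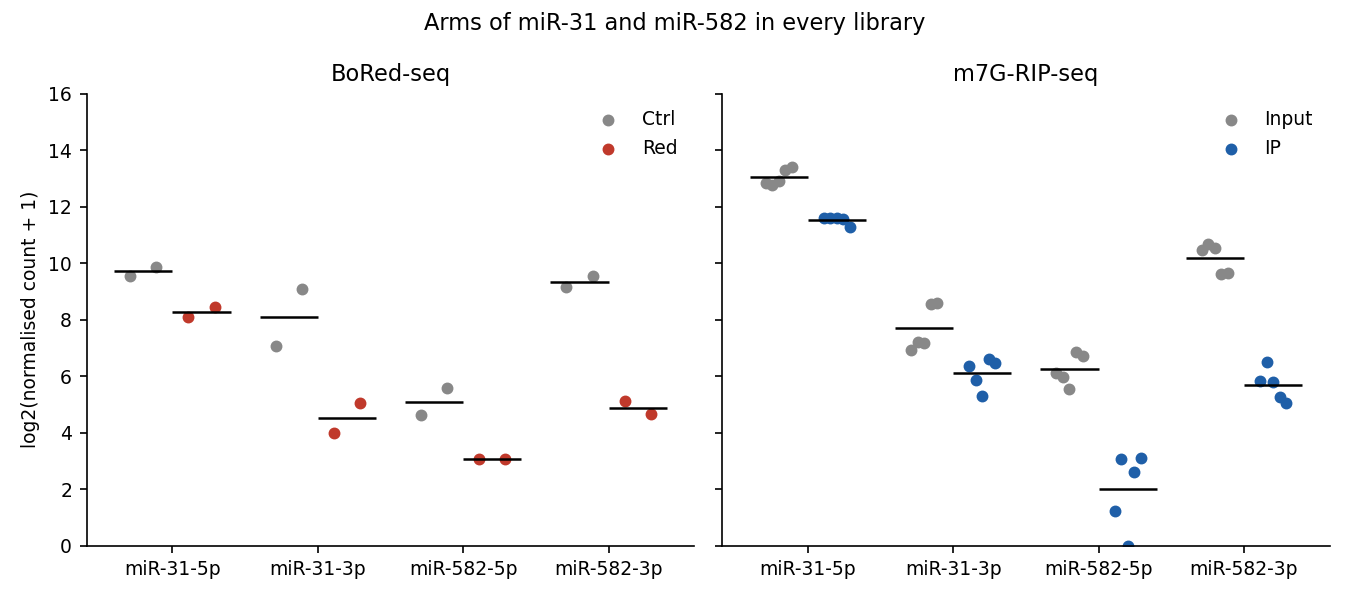
Normalised counts of the 4 arms in every library, as log2(normalised count + 1) on the vertical axis, for BoRed-seq (left, n = 2 and 2) and m7G-RIP-seq (right, n = 5 and 5), with a bar at each group's mean. By normalised count, all Red points of an arm lie below all its Ctrl points, and all IP points lie below all its Input points. The gap was smallest for miR-31-3p in m7G-RIP-seq, where the lowest Input library was 1.27-fold above the highest IP library.

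In the antibody assay both arms of miR-582 were strongly lower in IP, and the arms of miR-31 were lower by similar amounts. All 4 arms passed the filter of 10 counts in 5 libraries, which miR-582-5p did through its Input counts alone, and each was lower in every IP library than in every Input library by normalised count, as were 24.2% of the 670 miRNAs tested. All 4 were called depleted by the DESeq2 Wald test, as were 29.9% of all, and this contrast too had chosen the arms. With library totals as size factors the median log2 enrichment over all miRNAs moved from 0.02 to 0.38, and 164 miRNAs were called depleted and 232 enriched, against 200 and 183.

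miR-582-3p had normalised counts of 1399, 1632, 1477, 773 and 800 in Input 1 to 5 and of 55.4, 89.8, 54.8, 37.5 and 31.7 in IP 1 to 5. Replicates 4 and 5 were the low ones in both groups, and the groups were far apart. Its log2 enrichment was −4.50 ± 0.35 (SE), or 22.6-fold lower in IP, close to its BoRed-seq value of −4.52. The assays had separate controls and separate fits, but the arm was chosen for depletion in both, so nothing is read from this closeness.

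miR-582-5p had normalised counts of 67.8, 61.6, 45.5, 114 and 104 in Input and of 1.32, 7.38, 0, 5.07 and 7.61 in IP. Its raw counts in IP were 1, 6, 0, 5 and 6, so the order of the IP libraries has little behind it. The log2 enrichment was −4.11 ± 0.56 (SE), and the pooled ratio of 0.0578 had a counting interval of 0.0340 to 0.0921.

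miR-31-5p had normalised counts of 7328, 7032, 7613, 10091 and 10884 in Input and of 3118, 3091, 3091, 3030 and 2473 in IP. The IP libraries lay close together apart from the lower replicate 5, and the Input libraries were highest in replicates 4 and 5. The log2 enrichment was −1.54 ± 0.18 (SE), the best determined of the 4 by counts and by error.

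miR-31-3p had normalised counts of 121, 147, 143, 376 and 386 in Input and of 81.8, 57.8, 37.9, 95.3 and 86.3 in IP. Replicates 4 and 5 of Input were well above the rest, and the groups came near each other without overlapping. The log2 enrichment was −1.70 ± 0.43 (SE).

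Taken within the sets of replicates, the size of the miR-31 values moved while that of miR-582-3p did not. With replicates 1 to 3 alone the log2 enrichments were −1.28 for miR-31-5p, −1.24 for miR-31-3p, −4.23 for miR-582-5p and −4.51 for miR-582-3p. With replicates 4 and 5 alone they were −1.96, −2.10, −4.16 and −4.53 in the same order. Whatever sets replicates 4 and 5 apart moves with the miR-31 values, and its part in them was not tested.

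In the order of depletion, the 3p arms kept different company in the assays. Among the miRNAs with a mean normalised control count of at least 100, miR-582-3p took place 2 of 138 in BoRed-seq, between miR-30b-5p at a log2 enrichment of −5.01 and miR-181a-3p at −4.10, and place 6 of 312 in m7G-RIP-seq, between miR-21-3p at −4.52 and miR-30e-5p at −4.38. miR-31-3p took place 5 of 138 in BoRed-seq, between miR-548o-3p at −3.99 and miR-30a-5p at −3.81. In m7G-RIP-seq it was at place 86 of 312, between miR-3909 at −1.71 and miR-342-3p at −1.68. The working description of both 3p arms as strongly depleted thus fitted BoRed-seq and, in m7G-RIP-seq, only miR-582-3p. Differences from these neighbours are within the standard errors of the 3p arms for all but miR-30b-5p.

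The contrast between arms can be read inside each library, where size factors do not enter, although low counts make the ratio depend on the value added to them. For this the log2 ratio of 5p to 3p counts was taken in each library, with 0.5 added to both, and the change of its mean between groups is called the arm shift. For miR-31 the log2 ratio was 2.50 and 0.77 in Ctrl 1 and 2 and 4.05 and 3.41 in Red 1 and 2. Both Red libraries were above both Ctrl libraries, and the Ctrl libraries were again the more spread. The arm shift was 2.09, from 1.64 ± 1.22 (SD, n = 2) to 3.73 ± 0.45, and it ran from 1.23 without Ctrl 2 to 2.96 without Ctrl 1.

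For miR-582 the log2 ratio was −4.56 and −3.98 in Ctrl and −1.93 and −1.58 in Red. The arm shift was 2.51, from −4.27 ± 0.41 to −1.76 ± 0.24, and left-out libraries gave 2.22 to 2.80. The Red ratios rest on 2 and 3 counts of the 5p arm, and the interval of the 3p share in Red 1, 52.3% to 94.9%, reached the share of 94.1% in Ctrl 2. With nothing added to the counts the arm shift was 2.32, and with 1 added it was 2.67. In both hairpins the ratio moved toward the 5p arm. The arms were chosen on this contrast, under a description of the 3p arms as depleted, so nothing is read from the shared direction. A 5p to 3p ratio higher in every Red than in every Ctrl library was found in 36.0% of the 100 hairpins with both arms past the filter.

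In m7G-RIP-seq the ratios hardly moved. For miR-31 they were 5.91, 5.58, 5.73, 4.75 and 4.82 in Input 1 to 5 and 5.24, 5.73, 6.31, 4.98 and 4.83 in IP 1 to 5, and for miR-582 they were −4.36, −4.72, −5.01, −2.76 and −2.93 in Input and −4.82, −3.50, −5.73, −2.77 and −1.97 in IP. The groups overlapped in both hairpins, and replicates 4 and 5 leaned toward the minor arm in IP as in Input. The arm shift was 0.06 for miR-31, from 5.36 ± 0.54 (SD, n = 5) to 5.42 ± 0.60, with left-out libraries giving −0.16 to 0.21. For miR-582 it was 0.20, from −3.96 ± 1.04 to −3.76 ± 1.52, with −0.25 to 0.69, and 0.52 with 1 added to the counts. Both are below the spread between replicates, and the miR-582 ratios in IP rest on 0 to 6 counts of the 5p arm. A ratio higher in every IP than in every Input library was found in 22.6% of 155 hairpins, neither miR-31 nor miR-582 among them.

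Among all hairpins with both arms past the filter, the 2 hairpins were in the upper part of the BoRed-seq order and near the middle of the m7G-RIP-seq order. In BoRed-seq miR-582 was 18th of 100, between miR-331 at an arm shift of 2.67 and miR-29a at 2.15, and miR-31 was 20th, between miR-29a and miR-92b at 1.92. The median was −0.03 with quartiles of −1.05 and 1.39. In m7G-RIP-seq miR-582 was 86th of 155, between miR-424 at 0.20 and miR-299 at 0.17, and miR-31 was 91st, between miR-26b at 0.10 and miR-183 at 0.01. The median there was 0.38 with quartiles of −0.94 and 2.09. Since the arms were chosen on these enrichments, these places describe them and no more.

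**Figure D3:**
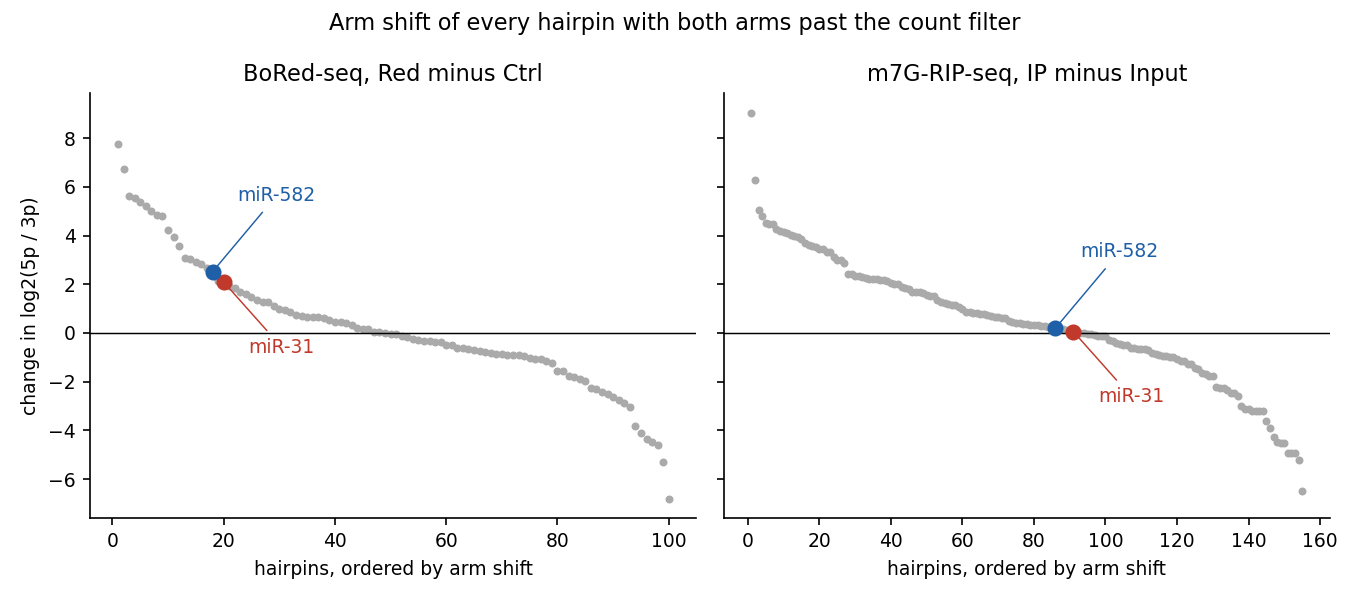
Arm shift (change in log2 of 5p over 3p counts, vertical axis) of every hairpin with both arms past the count filter, ordered from the largest to the smallest, for BoRed-seq (left, 100 hairpins) and m7G-RIP-seq (right, 155 hairpins). miR-582 and miR-31 lie at 2.51 and 2.09 in BoRed-seq and at 0.20 and 0.06 in m7G-RIP-seq.

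The control libraries of the assays did not use miR-31 alike. The Ctrl counts of the 3p arm are also the denominator of the depletion that chose it, so this comparison is not independent of the choice and is given as a description. The 3p arm held 15.0% (95% Wilson interval 13.8% to 16.3%) and 36.9% (35.4% to 38.4%) of the miR-31 counts in Ctrl 1 and 2, against at most 3.59% in Input. In Red it held 5.13% (2.01% to 12.5%) and 8.33% (4.93% to 13.7%), and in IP it held 1.21% to 3.37%. Ctrl thus stood above all other libraries. Each Red share was above each IP and Input share, but the interval of Red 1 reached into their range. In rank within the library by count, miR-31-5p was at place 50 to 53 in Ctrl and 48 to 54 in Input, while miR-31-3p was at place 65 to 121 in Ctrl and 205 to 285 in Input. In CPM, miR-31-3p was at 81.4 and 313 in Ctrl, 16.5 and 46.8 in Red and 15.1 to 51.7 in Input.

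As the difference of the mean log2 5p to 3p ratio, Ctrl minus Input, miR-31 had −3.72, the lowest of the 96 hairpins with both arms past both filters, followed by miR-30d at −3.40 and let-7a at −3.27. It ran from −4.58 without Ctrl 1 to −2.86 without Ctrl 2. The median hairpin had 0.01 with quartiles of −1.25 and 1.19, and the mean ratios of Ctrl and Input had a Pearson r of 0.929 across the 96 hairpins, which share their libraries and are not independent. The ratio was lower in every Ctrl than in every Input library in 32.3% of the hairpins, miR-31 among them. This place was seen in the data and has no test. The assays have separate libraries and count tables, and the labels do not say whether the libraries were prepared together. The handling of Ctrl RNA on the beads and any difference in preparation thus cannot be told apart.

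For miR-582 the Ctrl libraries, at a 3p share of 96.0% and 94.1%, lay within the Input range. The Ctrl minus Input difference was −0.31, 40th from the lowest of 96. With Input replicates 1 to 3 alone it was 0.42 and with replicates 4 and 5 alone −1.42, so its sign depended on the Input libraries used. The range of the miR-31 ratio between the 2 Ctrl libraries, 1.73, was the 8th largest of the 96 hairpins, against a median of 0.47, and the range of the miR-582 ratio over the Input libraries, 2.25, was also the 8th largest, against a median of 1.09.

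**Figure D4:**
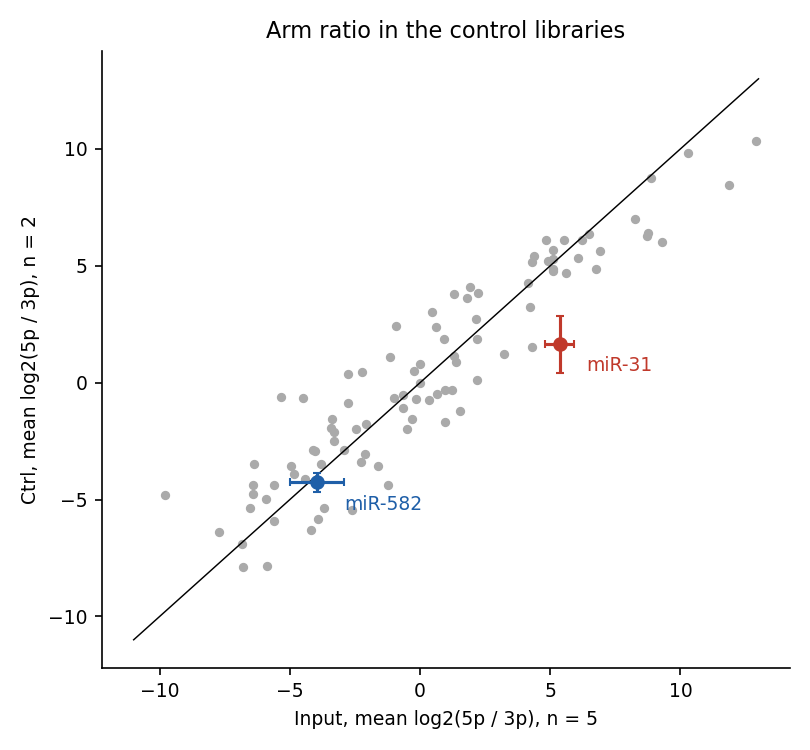
Mean log2 of 5p over 3p counts in Ctrl (vertical axis, n = 2) against Input (horizontal axis, n = 5) for the 96 hairpins with both arms past both filters, with the line of equal values and SD bars on the named hairpins. miR-31, at 1.64 in Ctrl and 5.36 in Input, lies below the line by 3.72, and miR-582 lies close to it.

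Since m7G forms on guanine, the guanine count of each arm was set beside its values. Over the miRNAs with a sequence at hand, the log2 enrichment was positively correlated with the number of guanines. In BoRed-seq the Pearson r was 0.373 and the Spearman rho 0.365 (355 of 400 miRNAs). In m7G-RIP-seq they were 0.417 and 0.435 (602 of 670). These are correlations across miRNAs that share their libraries, given without a test. miRNAs with 4 guanines, as in miR-582-3p, had a median log2 enrichment of −1.35 in BoRed-seq (n = 49) and −1.26 in m7G-RIP-seq (n = 74), with 42.9% and 47.3% called depleted. Those with 0 to 3 guanines, as in miR-582-5p, had −0.48 (n = 56) and −0.20 (n = 93), with 23.2% and 35.5% called depleted. The medians thus did not rise steadily, as those of 5 to 6 guanines were −0.72 and −0.44, also below the 0 to 3 class. Both miR-582 arms lay below the medians of their classes in both assays. The arms were chosen on these enrichments, so nothing is read from their places, nor from that of miR-31-5p below.

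miR-31-5p, with 7 guanines, also lay below its class, as miRNAs with 7 to 8 guanines had a median of 0.13 in BoRed-seq (n = 86) and −0.01 in m7G-RIP-seq (n = 144), with 20.9% and 27.8% called depleted. In the class with 9 to 14 guanines, to which none of the 3 sequenced arms belongs, 78.0% and 65.4% were called enriched. The miR-582 arms differ by 1 guanine, the 5p arm having fewer. Hairpins with that difference had a median arm shift of −0.24 in BoRed-seq (n = 11), against 2.51 for miR-582, which is among them, and of −0.62 in m7G-RIP-seq (n = 18), against 0.20. Across hairpins, the arm difference in guanine count and the arm shift had a Pearson r of 0.471 in BoRed-seq (87 of 100 hairpins) and 0.476 in m7G-RIP-seq (138 of 155). The arm shift of miR-582 in BoRed-seq is among the values that chose it, so nothing is read from its place against this relation.

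**Figure D5:**
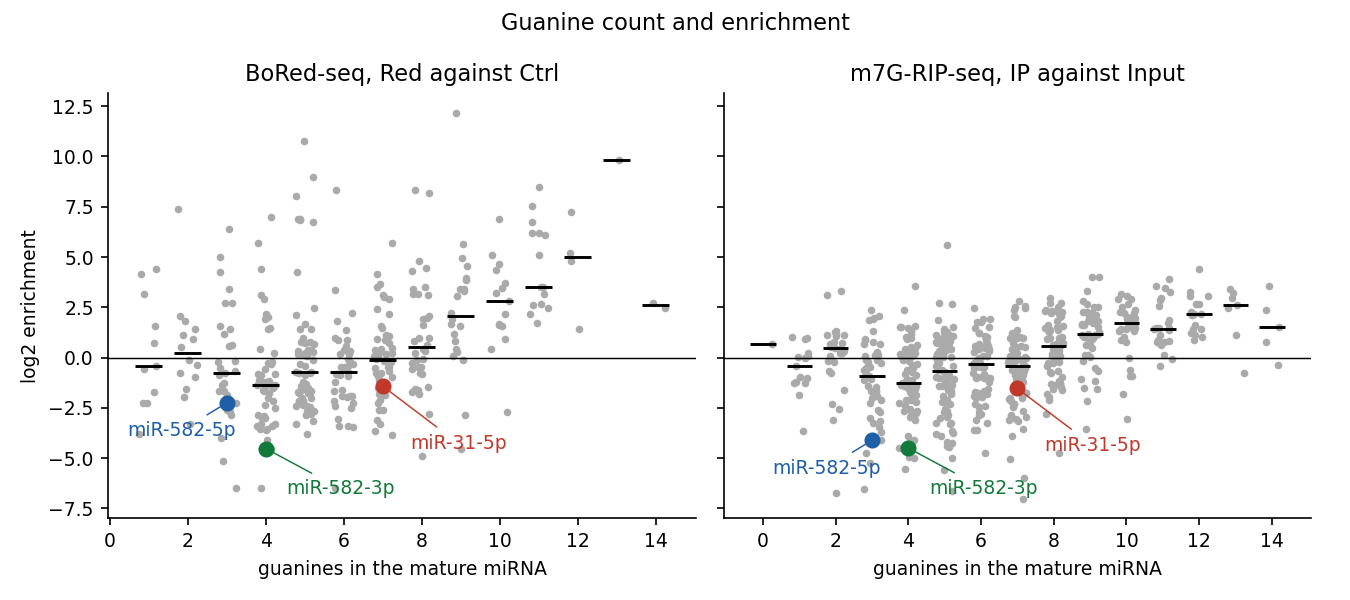
Log2 enrichment (vertical axis) against the number of guanines in the mature miRNA (horizontal axis) for BoRed-seq (left, 355 miRNAs) and m7G-RIP-seq (right, 602 miRNAs), with a bar at the median of each guanine count and points spread sideways within it. miR-582-5p, miR-582-3p and miR-31-5p all lie below 0 in both assays, at −2.25, −4.52 and −1.42 on the left and at −4.11, −4.50 and −1.54 on the right.

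Each arm had miRNAs of similar pattern over the 14 libraries. Likeness was measured as the root mean square difference of log2(normalised count + 1), each centred on the control mean of its assay, over miRNAs with a mean normalised count of at least 100 in Ctrl and in Input. Closest to miR-31-5p were miR-185-5p, miR-140-3p and miR-339-5p, each at 0.36 against a median of 1.18 over all candidates, with log2 enrichments in BoRed-seq and m7G-RIP-seq of −1.73 and −1.18, −1.92 and −1.98, and −0.72 and −1.40. Closest to miR-31-3p were miR-138-5p at 0.57, miR-22-3p at 0.60 and miR-493-3p at 0.63, against a median of 1.61. Like miR-31-3p, these 3 had more negative values in BoRed-seq, from −3.43 to −2.80, than in m7G-RIP-seq, from −2.17 to −1.55. Likeness was measured on the differences from the control mean, so enrichments near those of the arm follow from the rule. A distance below the median follows from it too, and neither supports anything.

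Closest to miR-582-5p were miR-455-5p at 0.57, miR-450a-5p at 0.68 and miR-769-5p at 0.76, against a median of 2.15, and these 3 had more negative values in m7G-RIP-seq, from −4.19 to −3.89, than in BoRed-seq, from −2.40 to −1.39. Closest to miR-582-3p were miR-21-3p at 0.60, miR-30a-5p at 0.63 and miR-101-3p at 0.65, against a median of 2.50. Their log2 enrichments ran from −3.81 to −3.14 in BoRed-seq and from −4.52 to −3.88 in m7G-RIP-seq, low in both assays as for miR-582-3p itself. For both miR-582 arms, these shared values again follow from how likeness was measured. miR-21-3p is, like miR-31-3p, the minor arm of its hairpin in most cells, whereas miR-30a-5p and miR-101-3p are usually the main arms of theirs.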

How the data were processed

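Small RNA was sequenced from A549 cells in 2 Ctrl and 2 Red libraries (BoRed-seq) and 5 Input and 5 IP libraries (m7G-RIP-seq). The authors deposited raw read counts for each mature miRNA, neither normalised nor pooled over replicates. They had trimmed adaptors with Trimmomatic, aligned reads end to end to hg38 (STAR in the study's methods, with at most 1 mismatch and 10 loci, and Bowtie2 in the submitters' processing notes) and counted them over miRBase miRNAs with featureCounts. No molecular identifiers were used, so intervals cover counting error only.

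miRNAs that reached 10 counts in 2 (BoRed-seq) or 5 (m7G-RIP-seq) libraries or more were fitted with DESeq2 1.42.0 in R 4.3.3, following the study's methods, 1 fit per assay, with unshrunken log2 enrichments. DESeq2 gave no adjusted p to 53 of 453 BoRed-seq miRNAs, which were left out of counts of calls. Adjusted p-values are Benjamini-Hochberg values, and calls were made under 0.05. edgeR 4.0.16, TMM and total-count factors, other count filters, left-out libraries and a replicate block were alternatives. The fits were tested on simulated counts. Arm ratios, Wilson intervals and correlations were computed in Python 3.11.15 with scipy 1.17.1. Ratios of pooled counts, scaled by size factors, carry exact conditional binomial intervals.

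Libraries of a group differed beyond sampling noise, with chi-square values per degree of freedom of 8.17 to 66.9 for BoRed-seq pairs and 31.4 to 1610 for m7G-RIP-seq pairs. Each library was thus counted as 1 replicate. In m7G-RIP-seq the deviations of Input and IP libraries of the same number from their group means correlated at 0.146 to 0.387 in all 5 pairs, each above the 0.1 set for a pairing. Libraries of different number within the same set correlated about as much (IP 4 with Input 5 at 0.359, IP 5 with Input 4 at 0.373), so the values also follow the split of replicates 1 to 3 from 4 and 5. The main fits had no replicate block, so their standard errors and calls ignore any pairing, and the block was an alternative only.

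Named miRNAs were the 4 arms, the 3 of most like pattern for each, and the neighbours of the 3p arms in the order of enrichment and of the hairpins in the order of arm shift. The let-7a and miR-30d hairpins were named after their values were seen. The arms, the marker miRNAs and the rules were chosen with earlier results of these data known. No p-value of the arms' enrichment is printed, and their calls support nothing, because those values had chosen them.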

Additional observations from a re-analysis of the deposited data

Results flagged for a closer look

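The normalised count of miR-31-5p in IP replicate 5, 2473, was far below the other 4 IP libraries, which lay between 3030 and 3118. The gap to the nearest library was 0.863 of the whole range, past Dixon's 95% critical value for 5 samples. Chance would pass it in about 1 of 20 for a single set of values. Since 12 sets were examined, and they are not independent, 1 such library could come by chance. With each m7G-RIP-seq library left out in turn, IP 5 included, the log2 enrichment of miR-31-5p in m7G-RIP-seq ran from −1.64 to −1.45.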

How the results depend on the processing

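Of 107 recomputed enrichments of the 4 arms, 101 kept their direction and call, 6 lost the call and 0 reversed. The lost calls were all in BoRed-seq, where a Red library held 2 to 143 counts of an arm. With total-count factors, miR-31-5p had −0.28 and miR-582-5p −1.11. miR-582-5p also lost its call with the replicate block (−2.21), and without Ctrl 1, Red 1 or Red 2, with left-out values from −2.76 to −2.11. Without Ctrl 2 it had −1.73 and no adjusted p, so that fit is not among the 107. Same-numbered BoRed-seq libraries correlated at 0.11 in their deviations, but 2 pairs share only a number, and the replicate block changed no other call of the arms in either assay. Counts of called miRNAs moved more. In BoRed-seq 109 depleted of 400 tested became 46 of 391 with total-count factors and 167 of 453 with edgeR. With 1 library left out they were 62 to 86, lowest without Ctrl 2. With 10 counts in every library they were 71 of 191, and 129 enriched of 400 also became 71 of 191. The filter also took the 200 depleted of 670 tested in m7G-RIP-seq to 116 of 362. Fewer miRNAs were tested under that filter, so its smaller counts are not smaller shares. The Ctrl minus Input ratio of miR-582 was −1.42 with Input 4 and 5 alone, an alternative chosen after seeing the data. Apart from the construction of each alternative, the causes were not tested. Asking for 10 counts in every library left no BoRed-seq value for miR-31-3p and both miR-582 arms, and no m7G-RIP-seq value for miR-582-5p. Without a pseudocount, no m7G-RIP-seq arm shift of miR-582 could be had, since IP 3 held 0 counts of the 5p arm.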
